A study of Polistes dominula with 96 samples.

Results

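In brains of the paper wasp *Polistes dominula*, 157 genes had a higher median level in control workers than in queens and were followed here through queen loss and adult age. A gene was taken as worker-high when the control worker median was at least 1.5-fold the queen median and reached 2 CPM (read counts scaled to library size, with TMM scaling factors), with 0.5 CPM added to both medians before the ratio. The count table held 11140 gene IDs, and 10794 were kept after a filter on low counts. Of these, 187 met the fold and the level. Of these, 24 followed Hdc, the histidine decarboxylase that makes the transmitter histamine in insect photoreceptors, with a Spearman correlation of 0.7 or more over the 96 libraries and were set aside. A further 6 were set aside by name, which left the 157. The fold and level minimum turned around, without the Hdc step and the drops by name, gave 390 queen-high genes, used below for comparison. Of the 157 genes 38 carried a symbol, 68 had an informative product name, 81 had one or the other, and 4 were annotated as long non-coding RNA.

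Each of the 96 libraries was the brain of 1 wasp from a laboratory nest. The groups were 26 queens, 12 workers of control nests that kept their queen, 24 wasps sampled 3 days after their queen was removed and 34 sampled 12 days after removal. Control workers came from 12 nests, day 3 wasps from 8 and day 12 wasps from 10, so queen removal wasps of a nest are not independent, and day and nest cannot be told apart. Queens were overwintered foundresses whose age the labels do not give, so caste and age cannot be told apart in the comparison of workers with queens. Control workers were 1 to 23 days old with a median of 11.5, day 3 wasps 3 to 33 days with a median of 13, and day 12 wasps 3 to 28 days with a median of 18.5. Queen removal wasps were chosen by the study to span behaviour and ovary development, and are a sample over phenotypes rather than a random draw from their nests. Of the queens, 10 shared a nest with a sequenced control worker and 12 with sequenced queen removal wasps, so the queen group holds queens of both treatments. Control nests were sham-treated and, per the study, also followed for 3 or 12 days. All 12 control workers served as 1 group beside both days, so comparisons with them are not matched by day. Queens were left without subordinate foundresses. The labels give no strain and no other treatment.

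Paper wasp workers and queens share one genome and a like body, and a worker can take over reproduction when the queen is lost. In other social insects, peptide hormones, biogenic amines, smell receptors, metabolic enzymes and extracellular matrix are among the gene classes that differ between castes or with the age of a worker.

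Libraries held 7933671 to 18124755 counts, and queens were the shallowest group with a median of 10437136 counts. Markers of muscle and of photoreceptors differed widely between libraries, and 16 libraries stood apart in one or the other by more than 3 scaled median absolute deviations (7 queens, 1 control worker, 3 day 3 and 5 day 12 wasps). The summed level of 13 muscle markers ran from 3174 to 40307 CPM in queens, 1808 to 15997 in control workers, 3594 to 39808 at day 3 and 4165 to 52001 at day 12. The summed level of 8 photoreceptor markers ran from 108 to 16759 CPM in queens and from 1173 to 6526 in control workers. The 5 glial markers summed to a median of 3313 CPM in queens, 4436 in control workers, 4029 at day 3 and 3756 at day 12. Each of these markers reached a median of 0.5 CPM in queens or in control workers, 10 neuronal markers summed to at least 1882 CPM in every library, and the part of cell composition in the results below was not tested. In bulk tissue, fewer cells of a type and less RNA per cell cannot be told apart.

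The caste difference chose the genes and is given as a description, with no test. The median gene was 0.76 log2 units higher in control workers, and 34 of the 157 were at 2-fold or more. No gene had its lowest control worker above the highest queen, so both castes overlapped in all 157. The largest difference, 2.70 log2 units, belonged to LOC107067009, an uncharacterized protein with 1.11, 19.6 and 89.0 CPM as the lowest, median and highest queen and 83.1, 130 and 356 CPM in control workers. It lay just inside the Hdc limit, with a correlation of 0.686. Qbp-1, a neuroparsin-like peptide gene, followed at 2.37, and then the uncharacterized LOC107074253 at 2.26 and LOC107065267 at 2.19. CPR28, a cuticle protein gene, differed by 2.13. Just inside the fold minimum lay LOC107070144 at 1.501-fold, LOC107069030, a sodium/potassium/calcium exchanger, at 1.505-fold and LOC107064370 at 1.506-fold. Just outside lay LOC107067949 at 1.4995-fold, the dopamine receptor gene Dop1R2 at 1.499-fold and LOC107068868 at 1.497-fold. At the level minimum, Crzr lay inside with a worker median of 2.04 CPM, next to LOC107063901 at 2.34 and LOC107067756 at 2.35, while LOC107071308 at 1.99, Osi17 at 1.94 and LOC107067758 at 1.93 CPM stayed outside. At the Hdc limit, the light channel gene trpl at 0.688 and LOC107065362 at 0.681 lay inside, and LOC107073382 at 0.734, LOC107064867 at 0.740 and the cadherin gene Cad74A at 0.744 lay outside. Counts ranged widely, with 37 genes at a worker median under 5 CPM and 27 at 100 CPM or more.

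Queens and workers of one nest could be compared directly in 10 control nests, which are the same libraries the choice used. The control worker was above her own queen in all 10 nests for 33 genes and in at least 8 nests for 112. In 12 queen removal nests the removed queen was also sequenced, and these queens are among those whose median chose the genes. There 14 genes were higher in the remaining wasps than in their own queen in all 12 nests, 77 in 10 or more and 15 in 6 or fewer. The choice of the genes thus partly sets the counts of both kinds of nest. They are a description, and the same counts were not made over all genes. The median gene was 0.75 log2 units above the own queen in control workers and 0.56 in queen removal wasps. Within nests the difference in control workers was under the fold minimum for 61 of the 157. It was 0.00 log2 units for LOC107074253, with 5 of 10 nests above, despite that gene's large difference between group medians. Apolpp, which encodes the precursor of the apolipophorins that carry lipid in insect blood, was above the own queen in 10 of 10 and 12 of 12 nests.

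To place each gene after queen loss, the queen median was set to 0 and the control worker median to 1 on the log2 scale. The median of the 157 genes lay at 0.67 at day 3 and at 0.60 at day 12. At day 3, 61 genes lay within 0.25 of the control worker level, 65 between 0.25 and 0.75, 23 under 0.25, of which 11 at or below the queen median, and 8 more than 0.25 above the control worker level. At day 12 the counts were 40, 88, 24 (7 at or below the queen median) and 5. On both days 33 genes were at 0.75 or more and 13 were under 0.25, while 36 were at 0.75 or more only at day 3 and 12 only at day 12. Taken wasp by wasp, the median position of the 157 genes ran from 0.31 to 1.10 among day 3 wasps and from 0.13 to 1.01 among day 12 wasps. The queen-high genes, placed by the same scale with 1 at the queens and 0 at the workers, lay at 0.29 at day 3 and at 0.44 at day 12. Both ends of these scales chose the genes, and a gene that was high by chance in the 12 control workers tends to lie lower in any other wasps, so nothing is read from a position between 0 and 1 alone.

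**Figure D1:**
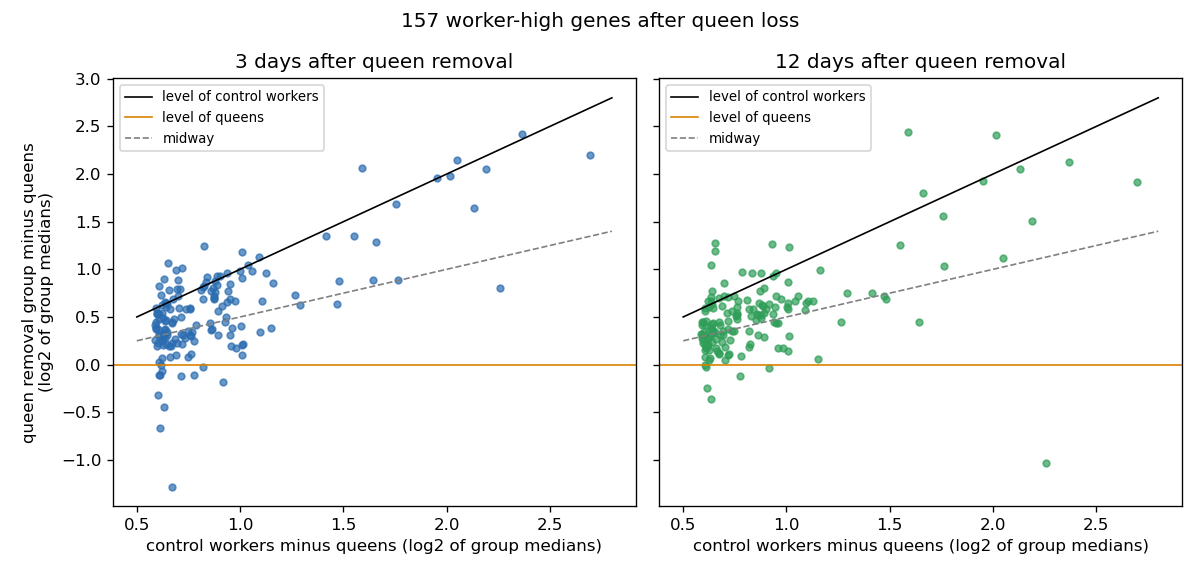
Each point is 1 of the 157 worker-high genes, with the control worker minus queen difference of group medians in log2 on the x axis and the queen removal group minus queen difference in log2 on the y axis, at day 3 (left) and day 12 (right). The black line is the control worker level, the orange line the queen level and the dashed line midway; most points lie between the black and orange lines, and the median position is 0.67 at day 3 and 0.60 at day 12.

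Few of the 157 genes passed the test against control workers, and those that did were lower. The comparison shares the 12 control workers that chose the genes, which favours lower values in queen removal wasps. Nothing is thus read from the direction, or from the distance of the shares and medians below to those of all genes. In edgeR (quasi-likelihood test, p-values adjusted by Benjamini-Hochberg over all 10794 genes), 0 of 157 passed an adjusted p of 0.05 at day 3, beside 0.0926% of all genes. At an unadjusted p under 0.05 there were 37, or 23.6% beside 15.02% of all genes, DESeq2 called 1, and limma voom with nest as a random effect called 0. At day 12 there were 2, beside 0.51% of all genes, both lower, beside 0.185% in that direction, and limma voom with nest as a random effect called 0. For the mean of both days there was 1, beside 0.278%, lower, beside 0.13% in that direction. The median difference from control workers was -0.20 log2 units at day 3 and -0.25 at day 12, against 0.00 over all genes, and 117 and 133 of the 157 differences were below 0, or 74.5% and 84.7% beside 50.9% and 51.6% of all genes. Of the queen-high genes 1 of 390 passed at day 3 and 22 at day 12, all higher than in control workers.

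LOC107070074, annotated as extensin, was the gene that passed for both days together. It had 15.1, 32.8 and 50.3 CPM as the lowest, median and highest of 12 control workers and 7.19, 16.0 and 29.5 CPM in 26 queens. At day 3 it had 7.50, 18.7 and 35.5 CPM, and at day 12 8.73, 19.8 and 35.1 CPM. The queen removal wasps overlapped both queens and control workers. Their medians were nearer to that of queens but above the lowest control worker, and their highest values were above the control worker median. For both days the level was 0.67 ± 0.14 log2 units below control workers (SE, adjusted p = 0.016), whose median also chose the gene. The call was lost with muscle and photoreceptor levels as covariates (adjusted p = 0.080) and with a stricter filter (adjusted p = 0.078). Over all settings without a fold minimum the adjusted p ran from 0.0067 to 0.080, and it was 1 against a 1.5-fold minimum. At day 12 alone the adjusted p was 0.028, and 0.056 in limma voom with nest as a random effect. Against their own queen, control workers of 10 nests were higher by a median of 1.01 log2 units, and the wasps of 12 removal nests by 0.04, with 6 of 12 nests above. The name comes from a plant cell wall protein, and no role in wasps is known from the sources used here.

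LOC107065548, annotated as repetitive proline-rich cell wall protein 2-like, passed at day 12 beside LOC107070074. Its lowest, median and highest levels were 1.12, 3.57 and 9.71 CPM in control workers, 0.495, 1.56 and 4.64 in queens, 0.939, 1.83 and 6.75 at day 3 and 0.658, 1.82 and 4.74 at day 12. The groups overlapped, and both queen removal medians lay near the queen median. At day 12 the difference from control workers was -0.97 ± 0.24 log2 units (SE, adjusted p = 0.040), which limma voom with nest as a random effect did not call (adjusted p = 0.11), and over the settings without a fold minimum the adjusted p ran from 0.015 to 0.11.

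The comparison at equal age shares the same control workers, so nothing is read from its direction either. With age as a covariate over the 70 wasps other than queens, 3 of 157 genes passed, beside 2.52% of all genes. All were lower in queen removal wasps, beside 0.649% of all genes in that direction. These were LOC107070074 at -0.66 ± 0.14 log2 units (SE, adjusted p = 0.014), the kainate receptor gene LOC107065660 at -0.77 ± 0.22 (adjusted p = 0.042) and Pde6, a cGMP phosphodiesterase gene, at -0.35 ± 0.10 (adjusted p = 0.043). All 3 calls were lost with muscle and photoreceptor levels as covariates and without the 16 libraries that stood apart, and limma voom with nest as a random effect called LOC107070074 only (adjusted p = 0.045). At equal age 10 of the 13 muscle markers were higher in queen removal wasps, and their part in these values was not tested. Between the days, 0 of 157 genes passed at day 12 against day 3, beside 0.287% of all genes. There 22 had an unadjusted p under 0.05, or 14.0% beside 10.4% of all genes, and DESeq2 and limma voom called 0.

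None of 6 genes for peptide hormones and their receptors passed against control workers or with age. Of all genes 0.278% passed for both days against control workers and 8.11% for age after queen removal. With 6 genes, nothing is read from the absence of a call. Their median position was 0.94 on both days, beside 0.67 and 0.60 over all 157 genes, with the 4 peptide genes higher than the receptor genes. Qbp-1 encodes a peptide like the neuroparsins, which are brain hormones named in locusts. Its lowest, median and highest levels were 2.06, 21.6 and 266 CPM in queens, 56.1, 113 and 205 in control workers, 32.4, 117 and 371 at day 3 and 7.87, 96.0 and 413 at day 12. Queens spread over a wide range that covered every control worker, and the 3 other groups had like medians. Crz encodes corazonin, a neuropeptide of the family of gonadotropin-releasing and adipokinetic hormones. Crz had medians of 11.1 CPM in queens, 18.3 in control workers, 18.6 at day 3 and 20.5 at day 12, with ranges from 3.15 to 30.5, 6.33 to 35.0, 3.15 to 35.7 and 4.96 to 36.4. The median after queen loss thus lay at or above that of control workers while the ranges of all groups overlapped.

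Apime-ASTA, which encodes allatostatin A, had medians of 22.0, 34.1, 36.7 and 35.3 CPM in queens, control workers, day 3 and day 12. ILP-2, an insulin-like peptide gene, had medians of 32.7, 50.7, 47.8 and 50.2 CPM, and a highest value of 321 CPM in a queen. Their medians on both days were near those of control workers. Of the receptors, Crzr, the corazonin receptor gene, had medians of 0.537, 2.04, 1.10 and 1.24 CPM, at the edge of what these libraries resolve, and the sex peptide receptor gene LOC107074606 had 2.45, 4.48, 3.16 and 3.69 CPM. On a list of 24 tested neuropeptide, hormone and receptor genes, 6 were worker-high, and 2 were lower with age after queen removal, neither of them worker-high.

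Of 4 genes for smell, those for SNMP1 and odorant receptor 13a-like stood above the control worker median on both days. SNMP1 is a membrane protein of olfactory neurons that takes part in pheromone detection in *Drosophila*. Its gene, LOC107070237, had 0.423, 1.23 and 4.30 CPM as the lowest, median and highest queen, 0.436, 4.71 and 46.6 in control workers, 0.921, 6.74 and 31.2 at day 3 and 0.755, 8.90 and 64.8 at day 12. The odorant receptor gene LOC107069924 had medians of 2.77, 4.64, 6.35 and 7.42 CPM in the same order, with ranges that overlapped throughout. The second receptor gene, LOC107070319 (odorant receptor 49b-like), had medians of 19.1, 35.7, 36.8 and 29.4 CPM. Ir25a, a co-receptor of ionotropic receptors, had 30.0, 50.2, 36.6 and 38.4 CPM and so lay nearer to queens. None of the 4 passed against control workers, beside 0.278% of all genes for both days, so nothing is read from that. Odorant receptors are members of multigene families whose reads may be shared.

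**Figure D2:**
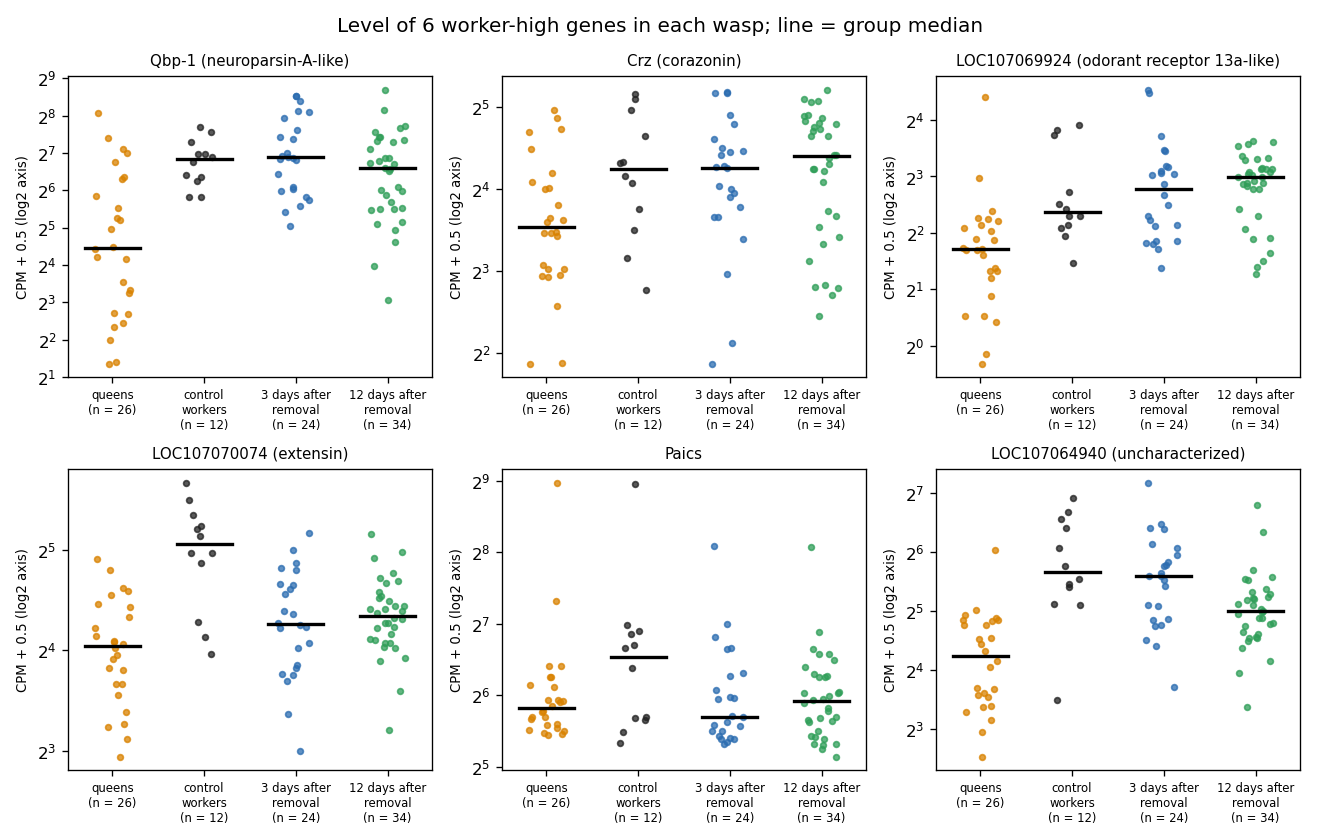
CPM plus 0.5 on a log2 axis in each of 96 wasps for 6 worker-high genes, by group, with each point a wasp and the line the group median. Qbp-1, Crz and LOC107069924 have queen removal medians at or near the control worker line or above it, LOC107070074 and Paics have them near the queens, and LOC107064940 is at 47.9 CPM at day 3 and 31.5 at day 12 beside 50.1 in control workers.

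Over 7 genes of transmitter handling and excitability the median position was 0.67 at day 3 and 0.57 at day 12. All 157 genes lay at 0.67 and 0.60, so nothing particular to this role is read from it. Vmat, the transporter that loads monoamines into vesicles, had 15.8, 22.3 and 56.3 CPM in queens, 19.1, 42.4 and 58.3 in control workers, 20.1, 34.4 and 62.5 at day 3 and 24.9, 34.8 and 61.4 at day 12. Gat-a, a GABA transporter gene, had medians of 89.6, 152, 135 and 125 CPM in the same order. The gene e (ebony in *Drosophila*, which joins beta-alanine to amines) had medians of 123, 190, 173 and 157 CPM, and its queens reached 214 CPM while control workers started at 168. The dopamine N-acetyltransferase-like gene LOC107069349, whose kind of enzyme inactivates amines in insects, had 1.91, 3.98, 3.08 and 2.46 CPM. Plc21C, a phospholipase C gene, lay low at positions of 0.33 and 0.24.

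The kainate receptor gene LOC107065660, which encodes a glutamate-gated channel subunit, lay below the queens on both days, at positions of -0.71 and -0.57. It had 1.52, 4.53 and 8.97 CPM as the lowest, median and highest queen, 1.86, 7.29 and 11.8 in control workers, 1.42, 3.19 and 9.82 at day 3 and 1.47, 3.42 and 10.4 at day 12. It is also the gene of the set in which wasps of a nest were most alike, described below. Control workers and queen removal wasps came from different nests. Group and nest thus cannot be told apart in these values or in the call at equal age. Against their own queen, wasps of 12 removal nests differed by a median of -0.11 log2 units.

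Among the metabolic genes, a pair for purine synthesis had medians near those of queens after queen loss. Paics and the amidophosphoribosyltransferase gene LOC107065309 encode enzymes of purine synthesis. Paics had 42.9, 55.8 and 501 CPM in queens, 39.9, 92.0 and 493 in control workers, 39.6, 51.5 and 270 at day 3 and 34.8, 59.8 and 270 at day 12. LOC107065309 had medians of 13.8, 21.4, 12.8 and 13.6 CPM. A few wasps in every group were far above the rest, and neither gene passed against control workers (for Paics -0.72 ± 0.25 log2 units over both days, SE, adjusted p = 0.13). Awd, for a nucleoside diphosphate kinase, lay between both castes with medians of 143, 218, 167 and 165 CPM. The phosphoserine aminotransferase gene LOC107072918, of serine synthesis, was also intermediate and had medians of 22.3, 35.2, 27.8 and 30.4 CPM. Apolpp had 1184 CPM in queens, 2151 in control workers, 1536 at day 3 and 1697 at day 12 as medians, with queens up to 1918 and control workers from 1236 up. UGP, which makes the sugar donor UDP-glucose, had medians of 270, 418, 338 and 334 CPM. Over 9 metabolic genes the median position was 0.48 at day 3 and 0.57 at day 12, beside 0.67 and 0.60 over all 157 genes, and no difference was tested.

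Cuticle, detoxification and transport genes mostly had medians between those of queens and control workers or near control workers, which the choice of the genes partly sets. CPR28, for a flexible cuticle protein, had medians of 4.08, 19.6, 13.8 and 18.5 CPM in queens, control workers, day 3 and day 12, with single wasps at 492 and 211 CPM after queen removal. CPR14, for an endocuticle glycoprotein, had 305, 614, 405 and 479 CPM. The probable chitinase genes Cht7 and LOC107068130 had day 12 medians of 26.3 and 22.0 CPM beside 31.5 and 25.7 in control workers. The cytochrome P450 gene LOC107074230, of an enzyme family that oxidises foreign compounds, had 3.10, 11.7, 6.18 and 6.89 CPM. The glutathione S-transferase gene LOC107064597 stayed at 29.4 and 31.4 CPM beside 28.8 in control workers and 15.9 in queens. The trehalose transporter gene LOC107064345 was likewise at 21.1 and 20.6 CPM beside 20.7 and 10.6. The phosphate transporter gene NaPi-T had medians of 13.8 CPM in queens, 22.6 in control workers, 24.2 at day 3 and 23.0 at day 12. In the piRNA pathway, which silences transposons, shu had 5.0, 8.07, 8.09 and 8.05 CPM while AGO3 had 7.29, 11.7, 9.35 and 9.42. None of these genes passed against control workers, beside 0.278% of all genes for both days.

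Genes without a role stated here differed in where they lay. The uncharacterized gene LOC107074253 had medians of 1.38 CPM in queens, 8.51 in control workers, 2.78 at day 3 and 0.419 at day 12, with wasps at 0 in every group and up to 25.8, 23.5, 22.7 and 17.3 CPM. Its spread was wide, and the day 12 difference from control workers of -1.59 ± 0.68 log2 units did not pass (SE, adjusted p = 0.25). The gene mdu had medians of 56.4, 107, 49.8 and 55.2 CPM in the same order, and A4 had 539, 831, 513 and 559. In both, queens and queen removal wasps had like medians, and neither passed for both days together. LOC107067009, first by caste difference, had 91.7 CPM at day 3 and 75.7 at day 12 beside 130 in control workers, and so lay between both castes.

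Most of the calls in the set came with age. The fold and level minimum did not use the 58 queen removal wasps, but the Hdc step ran over all 96 libraries. Among these wasps, 27 of 157 genes passed for an age slope with day as a covariate, 26 lower in older wasps and 1 higher. That is 17.2%, beside 8.11% of all genes, and 16.6% for the lower direction, beside 4.85%, and 0.64% for the higher, beside 3.26%. Slopes were below 0 in 121 of 157 genes, 77.1% beside 46.7% of all genes, and the median slope was -0.13 log2 units per 10 days beside 0.01. Of the 390 queen-high genes 44 passed, 30 higher and 14 lower with age. Of the 26 genes that were lower with age, 21 stood at a position of 0.75 or more at day 3. Of all 157 genes, 33 stood at 0.75 or more on both days and 36 at day 3 only. The medians that set the position also chose the genes. Whether the 26 genes differed in position from the others was not tested, so nothing is read from this count.

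A pair of collagen IV genes was among the 26. Collagen IV is a main component of basement membranes, the sheets of matrix that surround the insect brain and its glia. Col4a1 had a median of 956 CPM in 10 queen removal wasps of 9 days or less, 526 in 24 of 10 to 19 days and 313 in 24 of 20 days or more. The oldest wasps thus lay near the queen median of 287 CPM. The slope was -0.71 ± 0.09 log2 units per 10 days (SE, adjusted p = 1.7e-08). LOC107067849, for a second collagen IV chain, had 803, 422 and 275 CPM by age beside 282 in queens, with a slope of -0.66 ± 0.09 (adjusted p = 8.4e-08). On a list of 7 basement membrane genes these were the 2 that passed, and both were worker-high.

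ATPsyngamma, which encodes the gamma subunit of the mitochondrial ATP synthase, had medians of 540, 301 and 244 CPM by age class and 215 in queens. Its slope was -0.51 ± 0.05 log2 units per 10 days (SE, adjusted p = 1.2e-10). On the list of 43 oxidative phosphorylation genes, of which ATPsyngamma was the one worker-high gene, 38 were lower with age. The CD151 antigen-like gene LOC107067392 encodes a tetraspanin, a membrane protein that in mammals binds matrix receptors. It had 1532, 1050 and 832 CPM by age class beside 761 in queens, and a slope of -0.45 ± 0.05 (adjusted p = 2.4e-10). Gat-a had 185, 128 and 112 CPM beside 89.6 in queens, with a slope of -0.58 ± 0.08 (adjusted p = 3.7e-07). In the oldest class the queen removal medians of these 3 genes were above the queen median, while single wasps lay below it, down to 212 CPM in ATPsyngamma, 587 in LOC107067392 and 64.8 in Gat-a.

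Genes of other roles passed as well. Vmat had medians of 40.4, 35.3 and 31.1 CPM by age class and a slope of -0.26 ± 0.06 log2 units per 10 days (SE, adjusted p = 0.0015). It was 1 of 4 genes that passed on a list of 13 for monoamine synthesis, transport and receptors, all lower, and the only worker-high one. The chitinase gene LOC107068130 had 27.4, 23.3 and 18.5 CPM (slope -0.30), Chsy, for a chondroitin synthase, had 68.98, 58.3 and 43.5 (slope -0.35) and NaPi-T had 30.3, 23.8 and 17.4 (slope -0.38). CPR28 had 36.2, 22.8 and 7.86 CPM and the steepest slope of the set, -0.95 ± 0.26 (adjusted p = 0.014). LOC107068879, an uncharacterized gene, was the one that was higher with age, with 3.19, 4.02 and 6.39 CPM and a slope of 0.50 ± 0.15 (adjusted p = 0.022). Of the uncharacterized genes that were lower, LOC107064940 had 73.7, 37.1 and 26.9 CPM, LOC107065037 had 396, 286 and 235, and LOC107065150 had 22.3, 17.0 and 10.4.

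**Figure D3:**
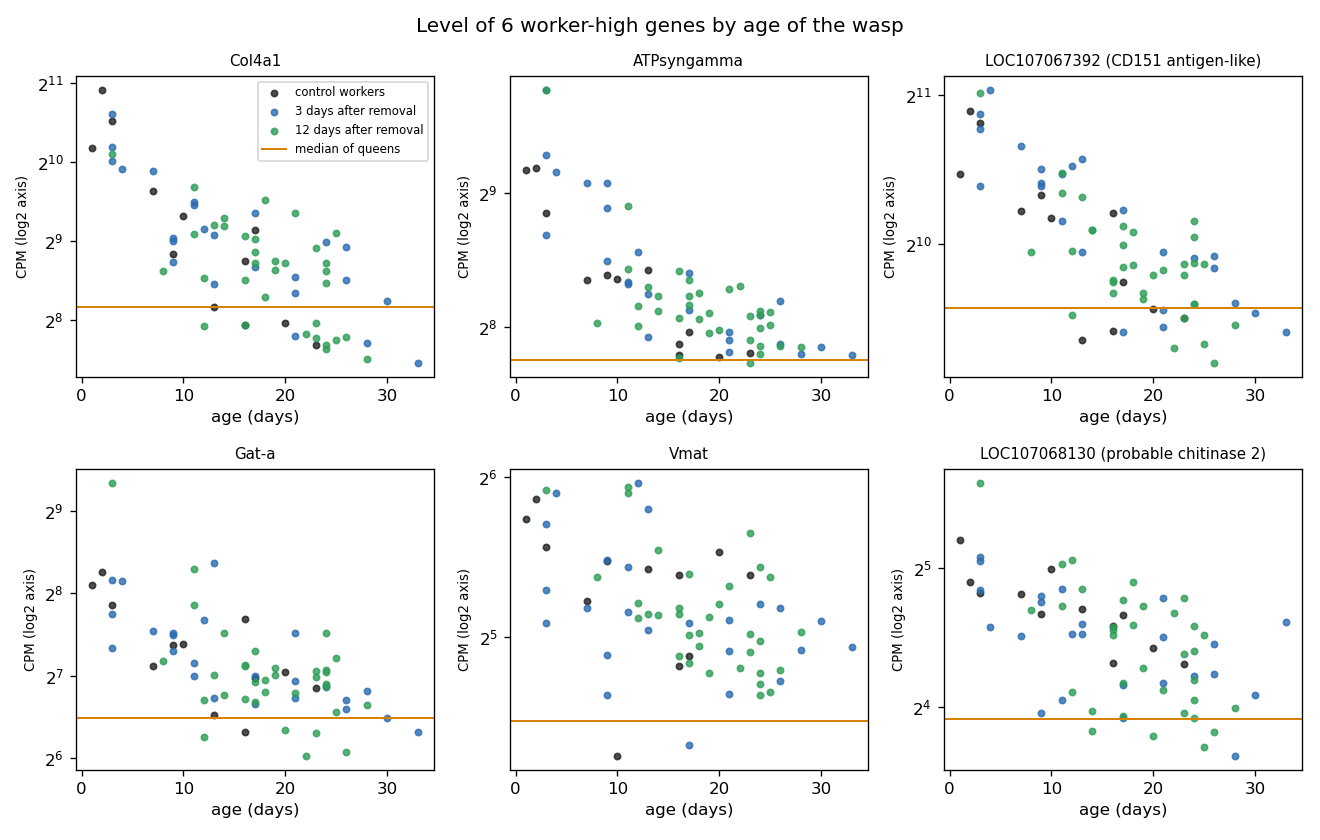
CPM on a log2 axis against age in days for 6 worker-high genes, with each point 1 of 70 wasps (12 control workers, 24 day 3 and 34 day 12 wasps) and the orange line the queen median. Medians of all 6 genes are highest in wasps of 9 days or less, while single wasps overlap between ages. In Col4a1 the median of queen removal wasps of 20 days or more is 313 CPM beside 287 in queens.

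Markers of other cell types moved with age as well. In queen removal wasps 6 of 13 muscle, 2 of 5 glial and 4 of 6 fat body markers were lower with age. Of the neuronal markers 0 of 10 passed in either direction, and of the photoreceptor markers 0 of 8. All 4 fat body calls were hexamerin genes, and HEX70b, Hex70c and Hex110 had group medians of at most 1.3 CPM. The abundant fat body markers Vgn and Tsf1 did not pass, with slopes of 0.52 and -0.02 log2 units per 10 days. On the list of 36 cytosolic ribosome genes 18 were higher with age and 1 was lower. Of all genes 4.85% were lower and 3.26% were higher. The part of these tissues in the slopes of the worker-high genes was not tested in itself. With muscle and photoreceptor levels as covariates 28 worker-high genes passed, 23 of them among the 27, and without the 16 libraries that stood apart 25 passed, 22 of them among the 27.

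With fewer wasps, fewer genes passed. Within day 3 wasps 14 genes passed and within day 12 wasps 15, with 10 in both, and 26 of the 27 genes had slopes below 0 in each. Without the 4 wasps of 3 days or less 17 genes passed, 16 of them among the 27. CPR28 did not pass within either day (adjusted p = 0.11 and 0.28), and the MOXD1-like gene LOC107064264 passed in none of these 3 settings (adjusted p = 0.089, 0.60 and 0.21). With nest as a random effect in limma voom 26 passed, 22 of them among the 27.

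In the 12 control workers, 5 of 157 genes passed for a slope over age, beside 0.639% of all genes, all lower, beside 0.537% in that direction. These were Col4a1 at -1.32 ± 0.18 log2 units per 10 days (SE, adjusted p = 0.0046), LOC107067849 at -1.39 ± 0.16 (adjusted p = 0.0033), ATPsyngamma at -0.67 ± 0.08 (adjusted p = 0.0033), LOC107067392 at -0.61 ± 0.12 (adjusted p = 0.032) and the uncharacterized LOC107069334. With muscle and photoreceptor levels as covariates none of the 5 passed. The first 4 also passed after queen removal, and 25 of the 26 genes that were lower with age there had a slope below 0 in control workers. Col4a1 had medians of 1160, 429 and 228 CPM in 5, 5 and 2 control workers of the same age classes. The difference between both slopes passed for 0 of 157 genes, beside 0.00926% of all genes. There 9 had an unadjusted p under 0.05, or 5.73% beside 6.08% of all genes, and DESeq2 and limma voom called 0. With 12 control workers, this does not show that the slopes were alike.

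**Figure D4:**
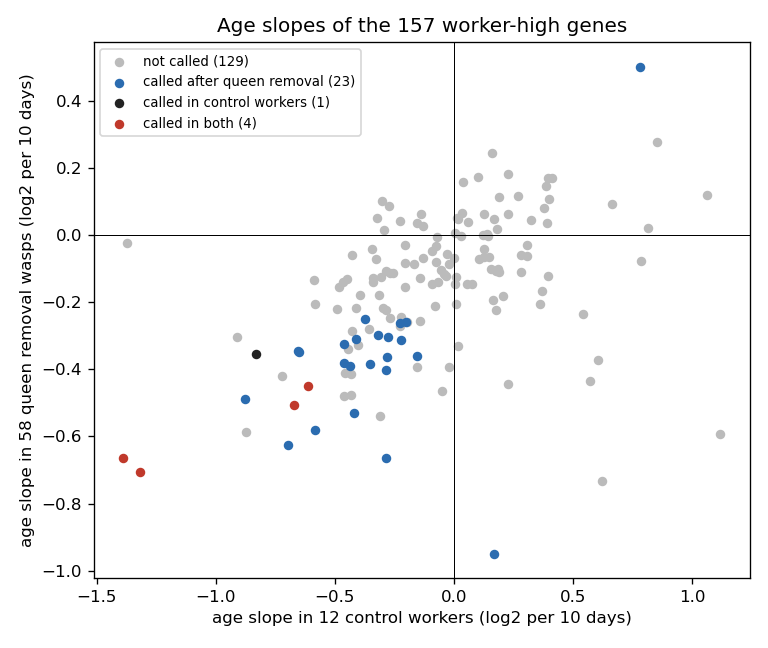
Age slope in 12 control workers on the x axis and in 58 queen removal wasps on the y axis, both in log2 units per 10 days, for the 157 worker-high genes. Grey points passed in neither, blue points (23) after queen removal, the black point (1) in control workers and red points (4) in both; most points lie left of and below 0.

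Among queen removal wasps, with each library set against its day mean, some worker-high genes varied together. The median Pearson correlation over 12246 pairs was 0.04 beside 0.00 over all genes, and 4.29% of pairs exceeded 0.5 beside 1.62%. These are descriptions over 58 libraries that share nests, ages and tissue content. Col4a1 and LOC107067849 had a correlation of 0.974, and Col4a1 had 0.804 with the CD151-like gene and 0.759 with ATPsyngamma. Paics and LOC107065309, both of purine synthesis, had 0.872, and Paics and the phosphoserine aminotransferase gene LOC107072918 had 0.783. Among the peptide genes Qbp-1 had 0.848 with ILP-2 and 0.672 with Apime-ASTA. Crz stood by itself, with no correlation above 0.560. The CRAL-TRIO lipid-binding protein genes LOC107070604 and LOC107070605 had 0.862.

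Nest accounted for much of the variation of some genes. In the 58 queen removal wasps, nest took a median of 40.6% of the variance of a worker-high gene beside 37.95% over all genes, where its share of the degrees of freedom was 28.6%. Age was not taken out, and nests differed in the ages of their wasps, so nest and age are mixed in these shares. The share was above 60% in 16 of 157 genes, 10.2% beside 4.74% of all genes. The highest was the kainate receptor gene LOC107065660 at 80.8%. Its medians in nests 3, 4, 5, 14 (day 12) and 57 (day 3) lay between 6.68 and 9.77 CPM, and in the 13 other nests between 2.30 and 4.17. The queen and the control worker were also alike in it: both were at 5.58 CPM or more in nests 1, 8, 9, 13, 28, 56 and 58, and both at 4.56 CPM or less in nests 49, 54 and 70. Against their own queen, wasps of 12 removal nests differed by a median of -0.11 log2 units and were above her in 4 of 12 nests. Sptz followed at 75.05%, the unnamed gene LOC107073285 at 73.0% and the uncharacterized LOC107073616 at 68.4%. LOC107073616 had medians from 0.838 CPM in nest 33 to 14.8 in nest 71. In LOC107073071, at 67.9%, the medians of nests 3, 4, 5, 14 and 57 were again the highest. They ran from 45.9 to 70.4 CPM, beside 13.5 to 39.8 in the 13 other nests. Paics lay at 62.2%, with the highest wasps in nests 14 and 71 in the plot of nests. LOC107073676 differed most between the days, with medians of 2.07 CPM at day 3 and 9.64 at day 12 beside 9.45 in control workers, a difference that did not pass (adjusted p = 0.18), and nest took 66.1% of its variance.

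**Figure D5:**
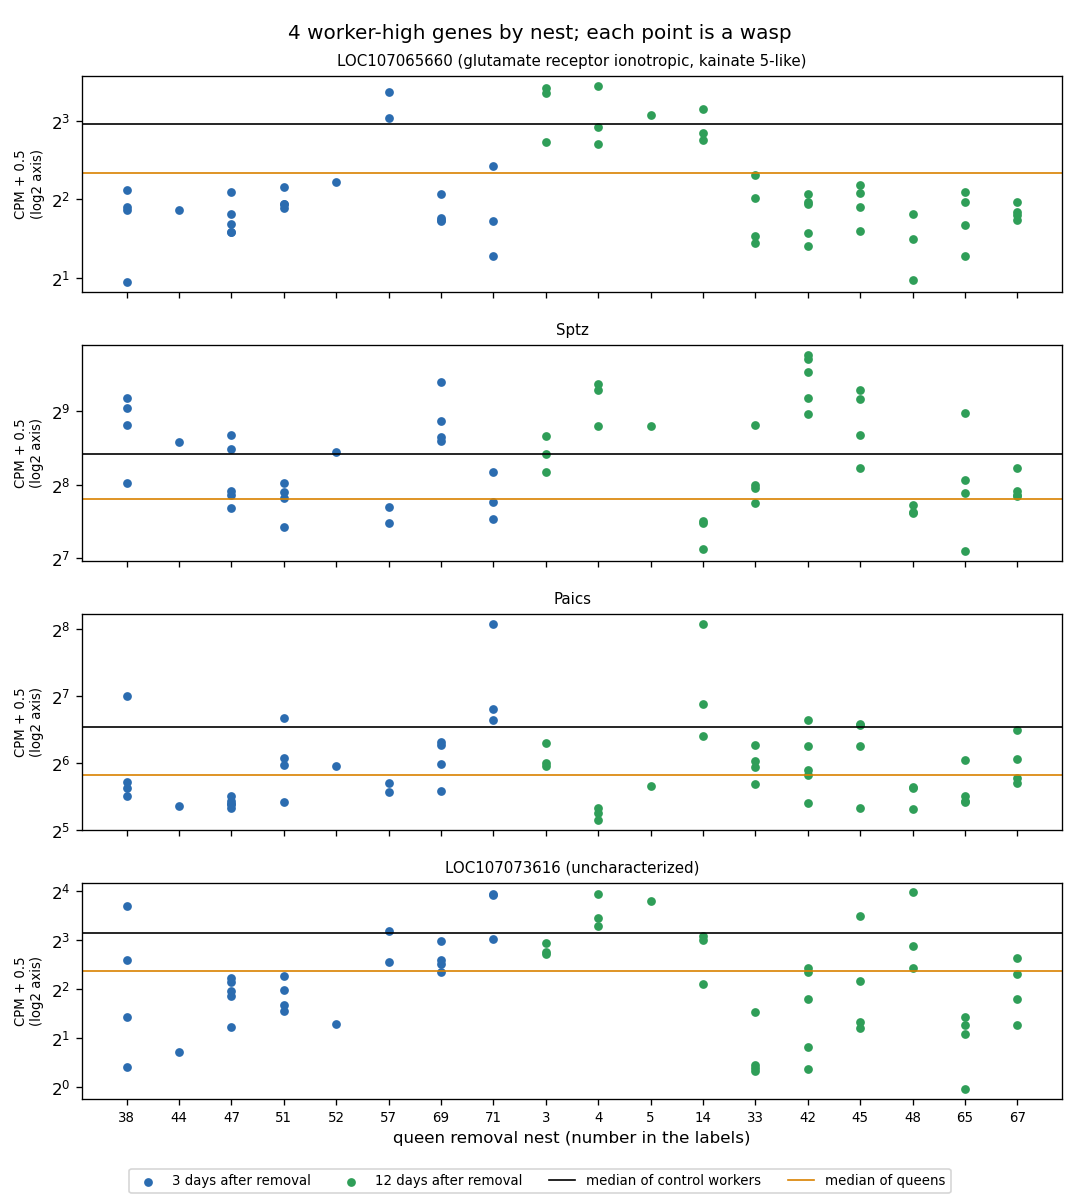
CPM plus 0.5 on a log2 axis for 4 worker-high genes in the 58 queen removal wasps, by the number of their nest, with each point a wasp, blue for day 3 and green for day 12. Lines mark the medians of control workers (black) and queens (orange); in LOC107065660 the wasps of nests 57, 3, 4, 5 and 14 stand above those of the 13 other nests.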

How the data were processed

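Per the labels and the study's methods, the authors extracted RNA from single brains, removed ribosomal reads with SortMeRNA, trimmed with Trimmomatic, aligned to annotated transcripts with STAR and obtained counts with StringTie2. The submitters' processing notes name Trimmomatic 0.36 and STAR 2.7, and the study's own software list names another Trimmomatic version. Strand use in counting is not given in the sources used here. The deposited values were raw counts per gene. Of 11335 entries, 194 repeated a gene ID and were summed. An entry without a name, 0.0216% to 0.0706% of a library, was left out. A gene was kept if any of the 4 groups summed to more than 20 counts for it.

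Counts were fitted with edgeR 4.0.16 (TMM, quasi-likelihood test, Benjamini-Hochberg over all genes kept, threshold 0.05) in R 4.3.3, in 1 fit of 4 groups, and for age in fits of 58, 12 or 70 wasps. Standard errors came from the same fits. Alternatives were DESeq2 1.42.0, voom in limma 3.58.1 (nest as random effect), another scaling, other filters, a replicate block, a threshold of 0.1, a 1.5-fold test and, chosen after seeing the data, muscle and photoreceptor covariates and the removal of 16 libraries that stood apart. CPM were computed with edgeR, and positions and correlations in Python 3.11.15 with pandas 2.3.3. The fits were tested on simulated data.

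The genes and lists were chosen with earlier results of these data known. Genes were named by the largest caste difference, the smallest p among calls, the largest caste difference per list and nearness to a limit of the rule. Those named by role, position, correlation or nest were chosen after their values were seen. Symbols came from RefSeq and product names, for 4391 genes, from the study's tables, which served for names only. The nest of a wasp was read from its label, except that 1 day 3 wasp was placed in the nest the study lists.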

Additional observations from a re-analysis of the deposited data

How the results depend on the processing

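Counts of worker-high genes that passed moved with the setting. For day 3 against control workers (0) they were 3 at a threshold of 0.1, 1 with DESeq2 and 1 without a filter. For day 12 against control workers (2) they were 7 at 0.1, 6 with DESeq2, 0 with limma voom, 0 with the 1.5-fold test, 0 with a filter of over 20 counts in every library of a group, and 1 without the 16 libraries that stood apart. For both days (1) they were 7 at 0.1, 3 with DESeq2, 0 with the 1.5-fold test, 0 with the stricter filter, 0 with tissue covariates and 2 without those libraries. For day 12 against day 3 (0) they were 1 at 0.1 and 1 without those libraries. For age after queen removal (27) they were 14 within day 3, 15 within day 12 and 17 without wasps of 3 days or less. For age in control workers (5) they were 11 at 0.1, 17 with DESeq2, 0 with tissue covariates and 3 without those libraries. At equal age (3) they were 13 at 0.1, 1 with limma voom, 0 with the 1.5-fold test, 0 with tissue covariates and 0 without those libraries. The cause of these shifts was not tested. Other settings left counts within 1.5 times, and the interaction stayed at 0 under every setting run.

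Replicate numbers of the labels only name the samples. Deviations of same-numbered wasps from their group means had median correlations of 0.02 to 0.06, and 5 of 12, 5 of 12, 2 of 12 and 10 of 24 pairs exceeded 0.1. With the number as a replicate block, counts were 1 at day 3, 4 at day 12, 3 for both days, 5 for age after queen removal and 0 at equal age. Under this block the slope of uif turned to 0.034 (adjusted p = 0.97).

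At a 2-fold minimum 34 genes were left, and the other rules gave 111 to 181. Positions stayed between 0.67 and 0.79 at day 3 and between 0.60 and 0.63 at day 12. Genes under 5 CPM are limited by depth.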
